A study of Homo sapiens with 6 samples.

Results

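The regions described here are open chromatin sites of moderate signal that lie 10 to 100 kb from the nearest gene start named for them. They were chosen from the authors' deposited tables of ATAC-seq regions: a region was kept where its smallest absolute distance to a named gene start was over 10000 and at most 100000 bases and its mean signal, the read count divided by the library's size factor and averaged over all 6 libraries, was from 50 up to but below 300. This rule kept 34542 of the 226920 regions, or 15.2%. The rule used mean signal and distance only, so the mean signal itself is a description, while the differences between groups were not used to choose regions. At the edges of the rule, a region near GOLGA5 lay just over 10000 bases from its start and was kept, and 1 near SUOX at 10000 bases was not. At the far edge the last region kept was named for RP11-58C22.1, at 99996 bases. The weakest region kept, near PRKAA2, had a mean signal of 50.002, against 49.9952 for an excluded region near NR3C1. The strongest kept, near NACC1, had 299.995, against 300.005 for an excluded region near MED24.

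ATAC-seq uses the Tn5 transposase to cut and tag DNA where chromatin is open, so read counts over a region measure its accessibility. Libraries were made from A375 cells, a human melanoma line, in 3 groups of 2 libraries each: cells given recombinant HMGA1 protein for 18 h, cells given it for 2 h, and untreated cells called mock. All cells, mock included, were frozen in a medium with DMSO, thawed and treated with DNase I before Tn5 was added. The labels speak of biological replicates without saying whether each library had a culture of its own, so every p-value here reflects only how far these libraries spread, which may be technical. A single mock group served both times, so a change between 2 h and 18 h cannot be told apart from time in culture without the protein.

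Accessible sites far from gene starts are often enhancers or other control elements, which transcription factors bind and which act on promoters through looping of chromatin; many are open in some cell types only. HMGA1 is a small chromatin protein that attaches to stretches rich in A and T through its AT-hook motifs, and it is also found outside cells. The series title names internalisation of HMGA1 by melanoma cells as its subject.

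The 34542 regions carried 11010 gene names, with a median of 2 regions per name and a maximum of 32, at BLID. A total of 3580 names had a single region and 351 names had at least 10. The median distance was 36.4 kb and the median mean signal 96.7 normalised reads, and 34525 of the regions were 501 bases wide by the authors' coordinates. By the RefSeq annotation of GRCh38.p14, 16809 regions (48.7%) lay inside the span of the gene they were named for, protein-coding or not. Another 1105 (3.2%) lay inside another protein-coding gene. The last 16628 (48.1%) lay outside both the named gene and every protein-coding gene. Of 26886 regions whose named gene has a RefSeq start on a known strand, 15533 lay downstream of it and 11353 upstream. The label distal did not hold for every region under RefSeq: 2622 of them (7.59%) lay at most 10000 bases from a protein-coding start of that annotation, and 314 overlapped one. The deposited distance was within 1000 bases of the RefSeq distance for 19743 of the 26886 (73.4%).

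RefSeq transcript starts that fall inside these regions allow part of their sequence to be shown. Windows of 250 bases before to 50 bases after a start lay wholly inside the regions 440 times, in 415 regions; 249 of the windows belong to long non-coding RNA genes and 191 to protein-coding genes. These windows had a median AT content of 42.0%, against 41.3% over all 35116 RefSeq windows, and 59.3% of them held a run of at least 6 A or T bases, against 61.2% over all windows. The letter patterns below were searched on both strands, and matches of different patterns may share bases. TGANTCA, the site of AP-1 factors, was found in 97 of the 440 windows (22%), against 7.71% of all windows. GGAATG, which reads CATTCC on the other strand and is the core site of TEAD factors, was in 76 (17.3%), against 14.0% of all windows. The E-box CACGTG was in 31 (7.05%), against 7.26%. These shares describe letters only. The windows inside the regions hold a larger share of non-coding starts than the whole set does. The whole set was not limited to accessible starts, so windows in other open regions were not compared.

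Among the windows reported here, 6 lay inside a region that differed between groups (adjusted p under 0.05 in the tables the authors deposited). Windows among the withheld items were not counted, so 6 may be less than the full number. Of the 6, 5 windows, all at non-coding RNA genes, are shown because they let the sequence be read beside the measurement. They run 5′ to 3′ on the strand of the RNA gene, in RefSeq's GRCh38.p14 sequence, with GGAATG or CATTCC in capitals. Each of these 5 holds at least 1 such match and none holds TGANTCA or CACGTG. The window of the 6 that is not printed, at the protein-coding gene CD59, holds 3 matches of TGANTCA and none of GGAATG or CACGTG.
LOC124904449, chr1:166947505-166947804, plus strand: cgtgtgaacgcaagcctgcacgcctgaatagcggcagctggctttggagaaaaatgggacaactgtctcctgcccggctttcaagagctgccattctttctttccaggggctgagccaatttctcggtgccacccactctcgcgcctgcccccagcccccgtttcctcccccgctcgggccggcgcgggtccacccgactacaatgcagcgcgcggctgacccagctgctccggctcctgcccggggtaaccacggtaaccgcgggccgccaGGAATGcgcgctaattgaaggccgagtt
SLC7A5-AS1, chr16:87836015-87836314, plus strand: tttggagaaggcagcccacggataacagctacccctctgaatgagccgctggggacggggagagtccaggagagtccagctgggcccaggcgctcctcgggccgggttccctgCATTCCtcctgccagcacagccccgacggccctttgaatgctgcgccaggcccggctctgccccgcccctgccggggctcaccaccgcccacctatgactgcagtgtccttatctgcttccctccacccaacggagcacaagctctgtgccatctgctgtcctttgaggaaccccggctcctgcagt
LOC284344, chr19:43248597-43248896, minus strand: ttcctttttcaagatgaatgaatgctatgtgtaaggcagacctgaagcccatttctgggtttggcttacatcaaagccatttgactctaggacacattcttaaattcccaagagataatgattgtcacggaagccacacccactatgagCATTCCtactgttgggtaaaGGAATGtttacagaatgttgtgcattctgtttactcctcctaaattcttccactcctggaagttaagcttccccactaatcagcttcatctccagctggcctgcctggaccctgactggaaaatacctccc
LOC107985981, chr2:213188189-213188488, plus strand: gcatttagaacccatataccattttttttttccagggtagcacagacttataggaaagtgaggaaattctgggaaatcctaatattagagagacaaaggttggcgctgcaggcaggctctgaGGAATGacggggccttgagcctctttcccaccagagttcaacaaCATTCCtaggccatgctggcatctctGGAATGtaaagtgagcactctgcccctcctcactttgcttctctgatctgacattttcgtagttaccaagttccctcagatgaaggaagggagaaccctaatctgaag
LOC105375567, chr7:150877081-150877380, minus strand: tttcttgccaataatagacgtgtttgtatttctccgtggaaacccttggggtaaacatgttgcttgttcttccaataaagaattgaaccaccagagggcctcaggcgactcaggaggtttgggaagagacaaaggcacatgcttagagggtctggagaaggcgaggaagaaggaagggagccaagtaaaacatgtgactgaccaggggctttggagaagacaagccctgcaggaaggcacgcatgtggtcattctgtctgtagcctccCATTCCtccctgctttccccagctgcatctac

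The longest A or T run in these windows was 11 bases, at LOC107985981, and 4 bases at SLC7A5-AS1, the only 1 of the 5 with no run of 6. The region around LOC107985981, named for IKZF2 and 36.5 kb from its start, had 41.3 ± 6.63 normalised reads at 18 h, 94.3 ± 13.3 at 2 h and 48.8 ± 7.65 in mock cells. Here and below a group level is the normalised read count per library with its SE, n = 2 libraries, worked back from the authors' deposited tables, which hold no value for a single library. The 18 h level was lower than the 2 h level by a log2 fold change of -1.19 (adjusted p = 0.00654, DESeq2 Wald test in the authors' deposited table), and the 2 h level did not pass against mock (0.95, adjusted p = 0.0914). The LOC284344 region, named for PSG9, fell by 1.18 on the log2 scale at 18 h over 2 h (adjusted p = 1.99e-05), with levels of 81.6 ± 9.34 at 18 h, 185 ± 18.5 at 2 h and 121 ± 13.0 in mock cells. The SLC7A5-AS1 region had 40.8 ± 6.96, 92.7 ± 14.1 and 30.3 ± 5.58 at 18 h, 2 h and in mock cells, and fell by 1.18 at 18 h over 2 h (adjusted p = 0.0144) in the authors' deposited table. Its mean signal was too low for a test of 2 h over mock, where its log2 value was 1.62. The LOC124904449 region, named for ILDR2, fell by 0.50 on the log2 scale at 18 h over 2 h (adjusted p = 0.0499 in the authors' deposited table). Only the LOC105375567 region, named for AOC1, fell at 2 h over mock, by 0.68 on the log2 scale (adjusted p = 0.0324), with levels of 129 ± 12.5 at 2 h and 206 ± 18.2 in mock cells. The last of the 6 reported windows is at CD59, which encodes an inhibitor of the complement membrane attack complex. Its region lies 13.4 kb from the start used by the authors yet contains the RefSeq start. The log2 value of that region at 18 h over 2 h was -0.50 (adjusted p = 0.0425 in the authors' deposited table).

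Hairpins of 17 microRNAs lay wholly inside 16 of the regions, and 2 of these regions differed between groups. Of all 34542 distal regions, 1268 differed in at least 1 comparison. The sequences of the 2 hairpins are shown 5′ to 3′ as RNA, with the mature parts in capitals, since they sit in regions that changed in opposite directions. The microRNAs themselves were not measured.
MIR6775, chr16:87834592-87834660, minus strand: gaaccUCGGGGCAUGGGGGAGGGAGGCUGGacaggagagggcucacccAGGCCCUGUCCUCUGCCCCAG
MIR3945, chr4:184851013-184851110, minus strand: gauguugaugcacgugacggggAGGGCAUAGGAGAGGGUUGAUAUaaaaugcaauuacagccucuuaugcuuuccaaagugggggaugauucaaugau
The MIR6775 region, named for SLC7A5, had 67.5 ± 8.74 normalised reads at 18 h, 119 ± 14.1 at 2 h and 66.3 ± 8.72 in mock cells, and fell by 0.81 on the log2 scale at 18 h over 2 h (adjusted p = 0.0409, authors' deposited table). The MIR3945 region, named for ACSL1, a long-chain acyl-CoA synthetase, had 246 ± 20.2 at 18 h, 152 ± 13.7 at 2 h and 188 ± 16.3 in mock cells, and rose by 0.70 at 18 h over 2 h (adjusted p = 0.00504, authors' deposited table).

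After 2 h of recombinant HMGA1, distal regions that changed mostly gained accessibility over mock. Of the regions with a test, 254 were higher and 70 lower at 2 h, out of 30751. The largest gain was in the THBS1 gene, which encodes thrombospondin-1, a secreted matrix glycoprotein known to activate latent TGF-beta, and other gains were near TPM1, CDC42BPA, AMOTL2 and the amino acid transporter gene SLC7A5. The median called gain was 1.78-fold and the median called loss 1.63-fold.

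The calls are those of the DESeq2 Wald test in the authors' deposited table at an adjusted p under 0.05, over all 86137 regions tested in the 2 h over mock comparison. The 254 higher regions are 0.826% of those tested and the 70 lower ones 0.228%. Over all tested regions of the series, 0.856% were higher and 0.421% lower, or 1.28% in all, so the share of gains among the distal regions was near that background. The 254 and 70 regions were 34.5% of all higher and 19.3% of all lower calls in that table. Another 3791 of the distal regions had no test, because their mean signal lay under the limit of 56.2 below which every adjusted p in that table is 1. An unadjusted p under 0.05 was found for 2575 of the tested distal regions (8.37%). The median log2 fold change was -0.03, against -0.06 over all tested regions; with fold changes centred on that median of all regions, 382 distal regions were higher and 46 lower, so that gains were 89.3% of the calls in place of 78.4%. At least 2-fold changes numbered 74 among the gains and 3 among the losses.

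**Figure D1:**
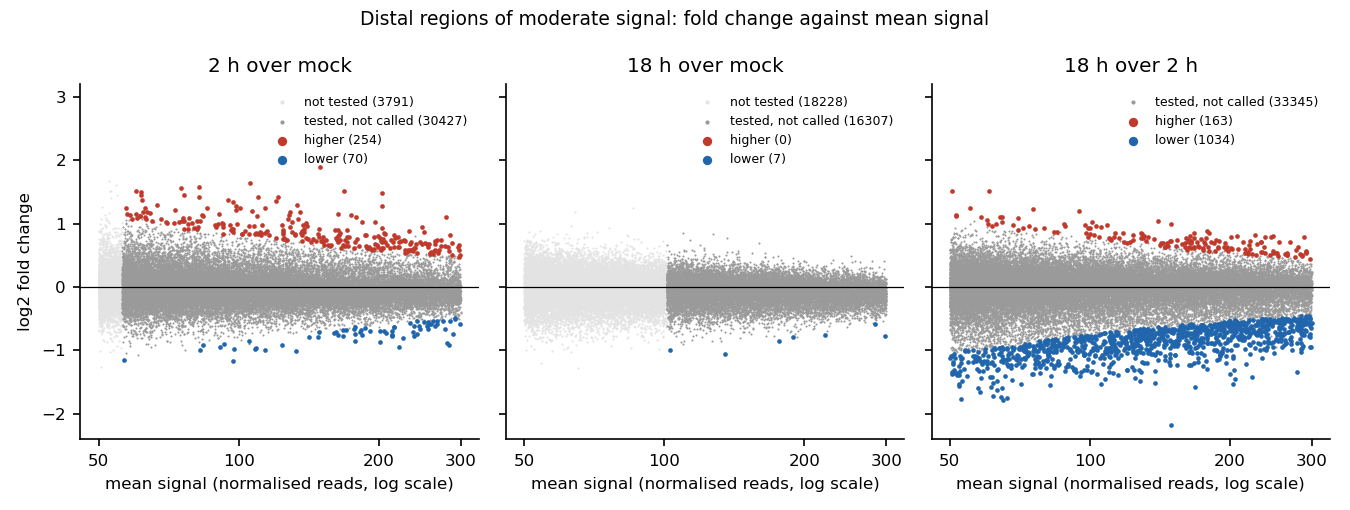
Log2 fold change of each of the 34542 distal regions against its mean signal in normalised reads (log axis) in the 3 comparisons of the authors' deposited tables; red points are higher and blue points lower at an adjusted p under 0.05, dark grey points were tested and not called, light grey points were not tested. Gains prevail at 2 h over mock (254 higher, 70 lower), 7 regions are lower at 18 h over mock, and losses prevail at 18 h over 2 h (163 higher, 1034 lower).

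The region with the largest gain at 2 h lay in THBS1, 16.6 kb downstream of its start, at chr15:39597716-39598217 (hg38). Its level was 66.6 ± 7.89 normalised reads at 18 h, 301 ± 27.9 at 2 h and 80.5 ± 9.24 in mock cells. The 2 h level was 3.74-fold that of mock (log2 1.90 ± 0.21, adjusted p = 3.50e-14, authors' deposited table). The 18 h and mock levels were within their summed errors of each other, and both lay far below the 2 h level. Taking 1 region per gene name and leaving out clone, antisense and non-coding names, as in the rankings that follow, the next was 14.1 kb from the start of BST1, at chr4:15717065-15717566; BST1 encodes CD157, a cell-surface ADP-ribosyl cyclase. Its levels were 50.3 ± 7.21 at 18 h, 147 ± 17.7 at 2 h and 49.1 ± 7.17 in mock cells, a gain of 1.58 ± 0.27 on the log2 scale at 2 h (adjusted p = 1.22e-05, authors' deposited table). Only the 2 h level stood apart there.

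A region 65.8 kb upstream of TPM1, which encodes the actin-binding protein tropomyosin 1, had 39.9 ± 6.65 at 18 h, 107 ± 15.4 at 2 h and 37.9 ± 6.47 in mock cells, and rose by 1.5 ± 0.32 (adjusted p = 0.00113, authors' deposited table). A region 97.8 kb from CDC42BPA, whose product is a kinase that acts on myosin downstream of CDC42, was stronger throughout, with 136 ± 12.0 at 18 h, 336 ± 25.6 at 2 h and 138 ± 12.3 in mock cells. It rose by 1.28 ± 0.17 at 2 h (adjusted p = 3.53e-10, authors' deposited table) and, at 97.8 kb, is near the far limit of distance. The region 53.7 kb from SYDE2, a gene for a GTPase activator, had 60.9 ± 7.90 at 18 h, 162 ± 17.9 at 2 h and 62.4 ± 8.17 in mock cells, a gain of 1.37 (adjusted p = 2.96e-05, authors' deposited table). In all 3 of these regions the 18 h and mock levels overlapped within their errors.

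Of the remaining 5 gene names among the 10 with the largest gains, the region near AMOTL2, an angiomotin-like protein that binds YAP, lay 22.6 kb from its start and had 51.3 ± 7.89 at 18 h, 98.1 ± 13.7 at 2 h and 35.7 ± 6.02 in mock cells. It rose by 1.46 at 2 h (adjusted p = 0.00133, authors' deposited table), and its 18 h level lay between the other two. The region near FAM20B, a xylose kinase of proteoglycan synthesis, rose by 1.42 and had 58.9 ± 7.90, 137 ± 16 and 51.1 ± 7.19 at 18 h, 2 h and in mock cells. The CHI3L1 region, 19.4 kb upstream of the gene for a secreted chitinase-like glycoprotein, rose by 1.37 and had 33.3 ± 5.60, 110 ± 15.0 and 42.5 ± 6.83. The LRRC2 region rose by 1.45 and the SLC7A5 region by 1.52, with adjusted p-values of 0.000212 and 0.000753 in the authors' deposited table. SLC7A5 encodes LAT1, a transporter of large neutral amino acids.

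Losses at 2 h were fewer. Of the 70, 39 had a mean signal of 200 to 300, as had 76 of the 254 gains. At like signal, called gains and losses were of like size. Their median log2 fold changes were 0.66 and -0.63 at 200 to 300, and 0.87 and -0.91 at 100 to 150. The largest loss by gene name lay 86.2 kb upstream of RGS1, which encodes a GTPase activator for G proteins. It had 61.3 ± 7.93 normalised reads at 2 h and 137 ± 15.0 in mock cells, and 93.6 ± 10.8 at 18 h. It fell by 1.16 ± 0.24 on the log2 scale (adjusted p = 0.000874, authors' deposited table). The region in SLC2A9, a urate transporter gene, fell by 1.15, with 36.6 ± 6.21 at 2 h and 81.0 ± 11.7 in mock cells (adjusted p = 0.0344, authors' deposited table). The region in SOX13, a SOX family transcription factor gene, fell by 1.01, with 93.2 ± 10.4 at 2 h and 187 ± 18.3 in mock cells (adjusted p = 0.000916). The other 7 of the 10 gene names with the largest losses were MAMDC2, TTLL11, PCED1B, KLF13, FYB1, TSPYL5 and STK4, whose regions fell by 0.94 to 0.99. STK4 encodes MST1, a core kinase of the Hippo pathway, and its region 82.3 kb from the start had 88.4 ± 10.7 at 18 h, 63.4 ± 8.35 at 2 h and 122 ± 14.1 in mock cells.

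**Figure D2:**
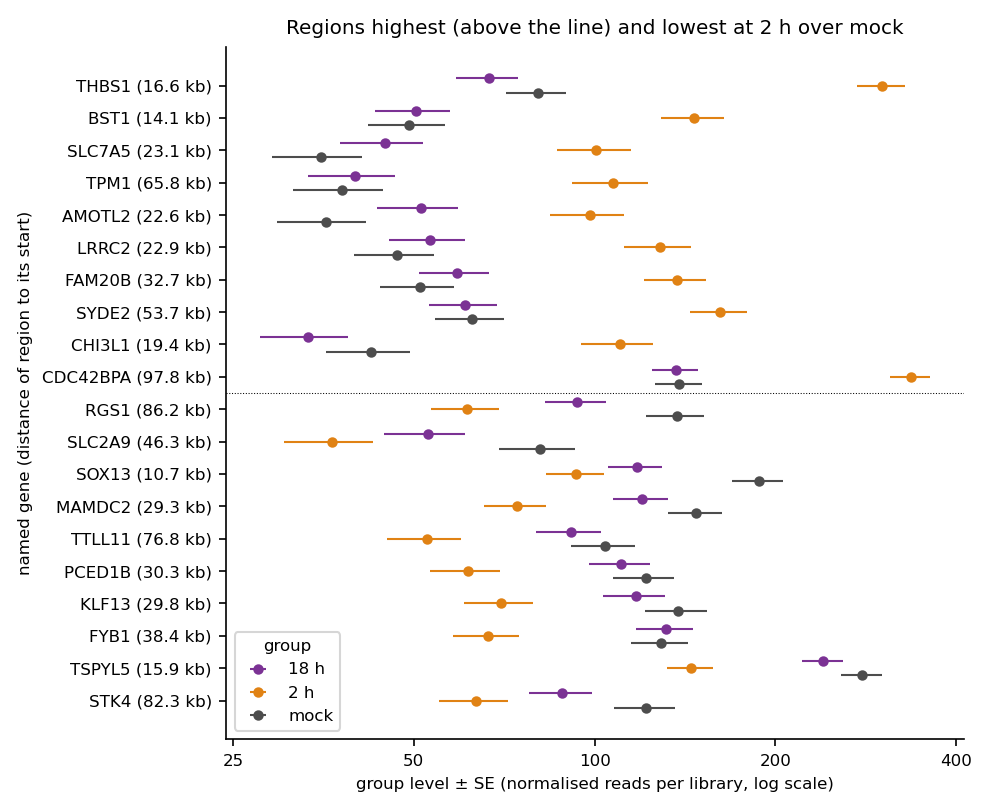
Group level with its SE (normalised reads per library, log axis, n = 2 libraries per group) at 18 h, at 2 h and in mock cells for the regions of the 10 gene names with the largest gains and, under the dotted line, of the 10 with the largest losses at 2 h over mock (1 region per name, with clone, antisense and non-coding names left out). In the THBS1 row the 2 h level of 301 stands far right of 66.6 at 18 h and 80.5 in mock cells, and in the rows under the line the 2 h level is the lowest of the 3.

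The 254 regions higher at 2 h had median levels of 111 at 18 h, 213 at 2 h and 123 in mock cells. Their median log2 fold changes were 0.83 at 2 h over mock, -0.11 at 18 h over mock and -0.96 at 18 h over 2 h. Of the 254, 231 were also called lower at 18 h over 2 h, against 2.98% of all tested regions. At 18 h over mock 189 of them had a test, and none was called higher. Only 0.00542% of all tested regions were higher there, so none of 189 was near that share. The 70 regions lower at 2 h had median levels of 216 at 18 h, 150 at 2 h and 247 in mock cells. Of the 70, 26 were called higher at 18 h over 2 h, against 0.498% of all tested regions. These comparisons share the 2 h libraries, so the values stand side by side with no test.

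The direct comparison of the exposure times gave the most calls. At 18 h over 2 h, 163 distal regions were higher and 1034 lower, in the authors' deposited table. Among the deepest losses by gene name were those of regions named for THBS1, SLC7A5, CHI3L1, DEK, ST3GAL1 and PLEC. The gains were of regions named for genes such as GRIK2, PYGL and ALDH1B1. The median called loss was 1.80-fold and the median called gain 1.65-fold.

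All 34542 distal regions had a test in this comparison. The share called was 3.47%, with 0.472% higher and 2.99% lower, against 3.48% of all 108134 tested regions, with 0.498% higher and 2.98% lower, so the distal regions were called about as often as regions at large. The median log2 fold change was 0.0049, against 0.011 over all tested regions. Losses of at least 2-fold numbered 299 and gains of at least 2-fold 16. The 1034 lower regions carried 870 gene names and the 163 higher ones 152. An unadjusted p under 0.05 was found for 4136 regions (12.0%), 3032 of them lower and 1104 higher.

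The 1034 regions lower at 18 h over 2 h had median levels of 106 at 18 h, 191 at 2 h and 131 in mock cells; the 18 h and 2 h levels entered the call, so these medians are a description. Of the 1000 with a test at 2 h over mock, 231 were called higher there, against 0.856% of all tested regions. The median log2 fold change of the 1034 at 18 h over mock was -0.31. Of the 737 with a test there, 2 were called lower, against 0.116% of all tested regions. The 163 regions higher at 18 h had median levels of 201 at 18 h, 122 at 2 h and 170 in mock cells. Of the 163, 26 were called lower at 2 h over mock, against 0.421% of all tested regions. The comparisons share libraries, so these shares stand side by side with no test.

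Apart from THBS1, with a log2 fold change of -2.18 ± 0.22 (adjusted p = 1.33e-18, authors' deposited table), the gene with the lowest region was ST3GAL1, a sialyltransferase gene. It had 28.5 ± 4.96 normalised reads at 18 h and 98.3 ± 13.5 at 2 h, with 68.7 ± 9.95 in mock cells, and fell by 1.79 ± 0.32 (adjusted p = 7.11e-06, authors' deposited table). The region 25.2 kb upstream of CBLL1, which encodes the ubiquitin ligase Hakai, fell by 1.75, with 32.3 ± 5.46 at 18 h, 109 ± 14.8 at 2 h and 57.7 ± 8.68 in mock cells (adjusted p = 7.13e-06, authors' deposited table). In both, the 18 h level was the lowest of the 3, and the mock level lay between.

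The region 42.2 kb from DEK, which encodes a chromatin protein that binds DNA structure rather than sequence, had 33.3 ± 5.57 at 18 h, 111 ± 15.0 at 2 h and 49.1 ± 7.61 in mock cells. It fell by 1.73 at 18 h over 2 h (adjusted p = 7.27e-06) and rose by 1.17 at 2 h over mock (adjusted p = 0.0123), both in the authors' deposited tables. The region near HNRNPA3, an RNA-binding protein gene, had 34.2 ± 5.82, 102 ± 14.5 and 47.2 ± 7.58 at 18 h, 2 h and in mock cells, and fell by 1.58 (adjusted p = 0.000127, authors' deposited table). The region near FRMD4A, a FERM-domain scaffold gene, fell by 1.66 and the 1 in C1orf198 by 1.62. The CHI3L1 region fell by 1.72 (adjusted p = 9.79e-06, authors' deposited table).

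Among the gains at 18 h over 2 h, the largest was 17.5 kb upstream of GRIK2, a kainate receptor gene. It had 87.6 ± 12.4 at 18 h, 30.5 ± 5.43 at 2 h and 63.8 ± 9.60 in mock cells, and rose by 1.52 ± 0.33 (adjusted p = 0.000453, authors' deposited table). The RBPMS region, in the gene for an RNA-binding protein, had 69.4 ± 10.5 at 18 h, 24.2 ± 4.68 at 2 h and 58.0 ± 9.13 in mock cells, and also rose by 1.52 (adjusted p = 0.00161, authors' deposited table). In both, the 2 h level was the lowest of the 3; the 18 h and mock levels overlapped within their errors at RBPMS and not at GRIK2. PYGL, the liver glycogen phosphorylase, and ALDH1B1, a mitochondrial aldehyde dehydrogenase, had regions that rose by 1.26 and 1.24. Of the 10 gene names with the largest gains, 5 more, SPATS2L, PZP, EPHX1, PTPN12 and NFE2L3, had regions that rose by 1.08 to 1.14.

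Some gene names had many called regions side by side. Within 10000 bases of a called neighbour, 30 of the 254 regions higher at 2 h formed 7 runs, and the longest were 10 regions over 22526 bases at SLC7A5, 9 over 8544 bases at THBS1 and 3 over 4795 bases at ALDH1A3. Of the 1034 regions lower at 18 h over 2 h, 149 lay in 52 runs, the longest being 18 regions over 29038 bases at SLC7A5, 14 over 16725 bases at PLEC and 9 over 8544 bases at THBS1. Neighbouring regions of a gene are not independent measurements. Without the regions named for SLC7A5, PLEC and THBS1, 234 of the 254 higher calls at 2 h and 993 of the 1034 lower calls at 18 h over 2 h were left.

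All 9 called THBS1 regions lay inside the gene, 10.1 to 18.1 kb downstream of its start, with log2 fold changes of 1.34 to 1.90 at 2 h over mock and -2.18 to -0.97 at 18 h over 2 h in the authors' deposited tables. The 4 other THBS1 regions lay upstream, and none was called; the 1 at 14.8 kb had 175 ± 15.4 normalised reads at 18 h, 173 ± 15.5 at 2 h and 170 ± 15.2 in mock cells.

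At SLC7A5, 10 of 18 tested regions were called higher at 2 h over mock, by 0.92 to 1.52. At 18 h over 2 h, 18 of 23 were called lower, by log2 values of -1.76 to -0.81 in the authors' deposited tables. They ran 17.3 to 45.8 kb downstream of the start, and the last 4, from 42.0 kb on, lay past the end of the gene. The deepest, at chr16:87846840-87847341, had 29.0 ± 5.17 at 18 h, 98.5 ± 14.1 at 2 h and 30.7 ± 5.47 in mock cells.

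PLEC encodes plectin, which links intermediate filaments to other parts of the cytoskeleton. There 14 of 17 regions were called lower at 18 h over 2 h, by log2 values of -1.60 to -0.98. All 14 lay inside the gene, 45.3 to 61.5 kb from the start used by the authors. Of the 15 PLEC regions with a test at 2 h over mock, 1 was called higher, by 0.92 (adjusted p = 0.0443, authors' deposited table). All 15 lay above mock, with log2 values of 0.10 to 0.92 and a median of 0.71.

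Smaller groups were found at 6 more genes. ALDH1A3 encodes a retinaldehyde dehydrogenase that makes retinoic acid. Of its 13 tested regions, 3 were called higher at 2 h over mock, by 1.01 to 1.18. They lay 17.8 to 22.1 kb downstream of the start, inside the gene. The region at chr15:100901462-100901963 had 41.4 ± 6.56 at 18 h, 92.4 ± 12.8 at 2 h and 43.6 ± 6.93 in mock cells. Of 5 regions named for IGFBP4, a secreted binding protein for insulin-like growth factors, 4 were called lower at 18 h over 2 h. Their log2 values were -1.35 to -0.94, and all lay past the end of the gene, 14.5 to 23.0 kb from its start. The strongest, at chr17:40457922-40458423, had 183 ± 14.4 at 18 h, 351 ± 25.1 at 2 h and 242 ± 18.3 in mock cells, and it also rose at 2 h over mock, by 0.54 (adjusted p = 0.0344, authors' deposited table).

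CCDC85C had 4 of 11 regions lower at 18 h over 2 h, from -1.42 to -0.75. Its deepest, 23.7 kb from the start, had 127 ± 11.2 at 18 h, 339 ± 25.4 at 2 h and 204 ± 16.5 in mock cells. WWC1, which encodes the Hippo pathway protein KIBRA, had 4 of 8 lower, by log2 values of -1.0 to -0.77. LIMA1, which encodes the actin-bundling protein EPLIN, had 4 of 14 lower, from -1.15 to -0.77, between 64.7 and 95.9 kb from the start, while its 8 regions nearer the start were not called. CRIM1, a membrane protein gene whose product binds BMPs, had 4 of 19 lower, from -0.83 to -0.77, all within 21.0 kb of the start in the authors' deposited table.

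**Figure D3:**
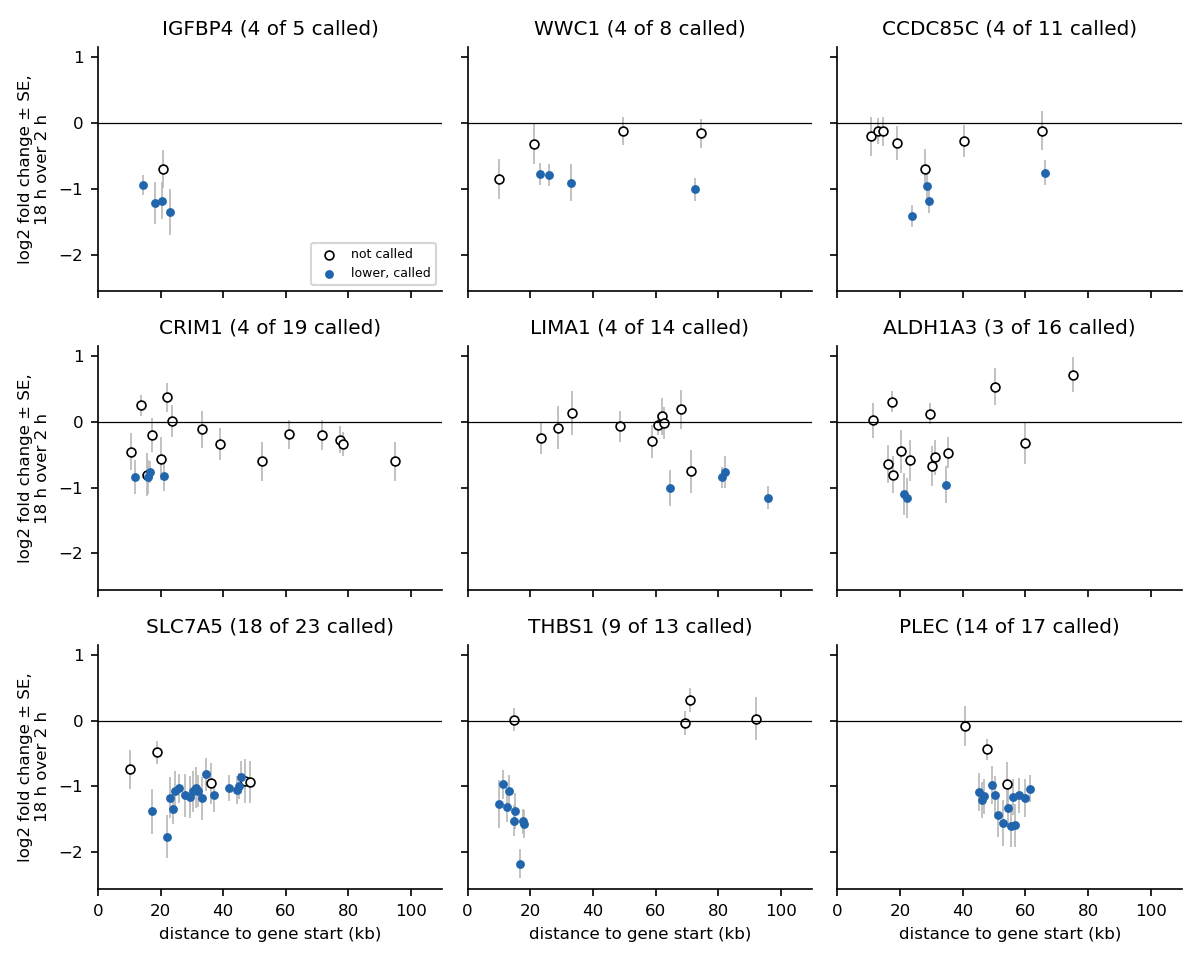
Log2 fold change with its SE at 18 h over 2 h (authors' deposited table) against the distance to the named gene start in kb, for every distal region of the 9 genes described for their number of called regions at 2 h over mock or 18 h over 2 h; blue points are lower at an adjusted p under 0.05, open points were not called. At THBS1 the 9 called regions sit between 10.1 and 18.1 kb, at SLC7A5 18 of 23 regions are called and at PLEC 14 of 17.

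Gene lists chosen for HMGA1, melanoma and signalling biology, with earlier results of these data known, gave the following counts. Some genes stand in more than 1 list, and no list was tested against other regions. Because of that choice, a list's share called beside that of all tested regions is a description only. Over all tested regions, 0.856% were higher and 0.421% lower at 2 h over mock, and 0.498% higher and 2.98% lower at 18 h over 2 h, or 1.28% and 3.48% called in either direction. The extracellular matrix list had 142 tested regions at 2 h over mock, of which 11 were higher and none lower, or 7.75% called against 1.28% of all tested regions. Of the 11, 9 were the THBS1 regions, and the others lay near COL4A2, a basement membrane collagen gene, and TNC, the gene for tenascin C. At 18 h over 2 h, 17 of its 160 regions were lower, 9 of them at THBS1, and none was higher, or 10.6% called against 3.48%; the median was -0.11, against 0.0049 over all distal regions. The lower ones included regions of the collagen genes COL4A1, COL4A2, COL5A1, COL5A2 and COL8A1 and of the laminin gene LAMC1.

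The actin cytoskeleton and adhesion list had 8 of 204 tested regions higher and 1 lower at 2 h over mock, and 23 of 232 lower and 2 higher at 18 h over 2 h, with medians of 0.07 and -0.17. The shares called were 4.41% and 10.8%, against 1.28% and 3.48% of all tested regions. A region in MYO9B, which encodes an unconventional myosin, had 117 ± 11.0 at 18 h, 321 ± 25.4 at 2 h and 177 ± 15.3 in mock cells. It rose by 0.86 at 2 h over mock (adjusted p = 0.000253) and fell by 1.45 at 18 h over 2 h (adjusted p = 1.28e-12), both in the authors' deposited tables. The LIMA1 region 95.9 kb from the start had 125 ± 11.4 at 18 h, 279 ± 22.2 at 2 h and 158 ± 13.8 in mock cells, a gain of 0.82 at 2 h (adjusted p = 0.000718, authors' deposited table). The exception at 2 h, lower than mock, was a region of ARHGAP26, a GTPase activator gene.

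Targets of YAP and TEAD, the transcription factors that the Hippo pathway restrains, had 5 of 115 tested regions higher at 2 h over mock and 10 of 131 lower at 18 h over 2 h, with none in the other direction. The shares called were 4.35% and 7.63%, against 1.28% and 3.48% of all tested regions. A second AMOTL2 region, 43.6 kb from the start, had 107 ± 10.5 at 18 h, 250 ± 21.3 at 2 h and 138 ± 12.9 in mock cells; it rose by 0.86 at 2 h (adjusted p = 0.000951) and fell by 1.23 at 18 h over 2 h (adjusted p = 5.40e-08) in the authors' deposited tables. The region in PTPN14, a phosphatase that binds YAP, had 55.5 ± 7.65, 134 ± 16 and 61.8 ± 8.42 at 18 h, 2 h and in mock cells. It rose by 1.12 at 2 h over mock (adjusted p = 0.00418, authors' deposited table).

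For TGF-beta ligands, SMADs and targets, 2 of 127 tested regions were higher at 2 h, near SMAD2 and SMAD3, the receptor-activated SMADs of TGF-beta signalling, and 7 of 137 were lower at 18 h over 2 h; the shares called, 1.57% and 5.11%, stood against 1.28% and 3.48% of all tested regions. The SMAD3 region 93.2 kb from the start had 207 ± 16.4 at 18 h, 382 ± 27.9 at 2 h and 245 ± 19.0 in mock cells. It rose by 0.64 at 2 h over mock (adjusted p = 0.00606, authors' deposited table). The BMP4 region, near the gene for a bone morphogenetic protein, had 60.3 ± 7.84, 157 ± 17.4 and 94.3 ± 11.3 and fell by 1.38 at 18 h over 2 h (adjusted p = 7.33e-06, authors' deposited table).

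The MAPK list had 3 of 104 tested regions higher at 2 h over mock, 2 near CCND1, the cyclin D1 gene, and 1 near SPRY2, a feedback inhibitor of receptor tyrosine kinase signalling. This was 2.88% of the list's tested regions, against 1.28% of all tested regions, and at 18 h over 2 h 2.59% of it was called, below the 3.48% of all tested regions. The CCND1 region 14.4 kb from the start had 153 ± 13.3 at 18 h, 318 ± 24.8 at 2 h and 193 ± 16.2 in mock cells, and rose by 0.72 (adjusted p = 0.00333, authors' deposited table). The SPRY2 region was above mock at both times, with 155 ± 16.9 at 18 h, 164 ± 17.9 at 2 h and 90.7 ± 10.9 in mock cells. Its log2 fold change was 0.85 at 2 h over mock (adjusted p = 0.0279), 0.77 at 18 h over mock (adjusted p = 0.177) and -0.08 ± 0.22 at 18 h over 2 h (adjusted p = 0.975), in the authors' deposited tables.

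None of 83 tested regions of AP-1 and immediate early genes was called at 2 h over mock by the DESeq2 test, against 1.28% of all tested regions. With 83 regions, none was near that share. At an unadjusted p under 0.05 there were 6, and no other tool could be run. At 18 h over 2 h, 3 of 96 were lower and 1 higher, or 4.17% called against 3.48% of all tested regions. The KLF6 region, near the gene of a zinc finger factor, had 72.1 ± 8.99 at 18 h, 153 ± 17.0 at 2 h and 105 ± 12.3 in mock cells and fell by 1.09 (adjusted p = 0.000681, authors' deposited table). The EGR2 region, 99.8 kb from an early response gene, had 286 ± 21.6, 184 ± 15.2 and 239 ± 18.7 and rose by 0.64 (adjusted p = 0.00494, authors' deposited table).

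The NF-kB list had 1 of 51 tested regions higher at 2 h over mock, near NFKBIZ, a nuclear IkB protein gene, with 76.5 ± 8.87 at 18 h, 190 ± 19.0 at 2 h and 107 ± 11.7 in mock cells. Of its 59 regions, 3 were lower at 18 h over 2 h, near NFKBIZ, BIRC3 and LIF, or 5.08% against 3.48% of all tested regions. At 2 h over mock the share called in this list was 1.96%, against 1.28%. The endocytosis list had 1 of 68 higher at 2 h, 99.1 kb from CAV2, the caveolin 2 gene, with 76.0 ± 9.17, 173 ± 18.4 and 87.8 ± 10.4 at 18 h, 2 h and in mock cells. Of its 77 regions, 2 were lower at 18 h over 2 h, near CAV2 and the heparan sulphate proteoglycan gene GPC1; the shares called in this list, 1.47% at 2 h over mock and 2.6% at 18 h over 2 h, were near the 1.28% and 3.48% of all tested regions. The list of epithelial to mesenchymal transition and melanoma phenotype switching had 1 of 90 higher, at the receptor kinase gene AXL, and 1 lower, near CD44, the hyaluronan receptor gene. That CD44 region had 216 ± 18.1, 158 ± 14.3 and 266 ± 21.9 at 18 h, 2 h and in mock cells, and fell by 0.75 at 2 h over mock (adjusted p = 0.00456, authors' deposited table). At 18 h over 2 h, 3 of the list's 102 regions were lower and 1 higher. The shares called, 2.22% at 2 h over mock and 3.92% at 18 h over 2 h, stood against 1.28% and 3.48% of all tested regions.

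Among regions named for HMG proteins, 1 of 10 tested was higher at 2 h over mock, 11.0 kb from HMGB2, an HMG-box chromatin protein gene. It had 63.2 ± 7.81 at 18 h, 172 ± 17.8 at 2 h and 88.0 ± 10.2 in mock cells, and fell by 1.45 at 18 h over 2 h (adjusted p = 3.53e-07, authors' deposited table). The HMGA2 region 55.6 kb from its start had 118 ± 12.0, 201 ± 18.9 and 161 ± 15.7 and fell by 0.77 at 18 h over 2 h (adjusted p = 0.00698). In this list 10% of 10 regions tested at 2 h over mock and 16.7% of 12 at 18 h over 2 h were called. All tested regions had 1.28% and 3.48%, and with so few regions the list's shares are a description. The insulin and growth factor receptor list had 1 of 59 higher at 2 h, in ERBB4, and 3 of 66 lower at 18 h over 2 h, near ERBB4, IGF1R and IRS2, or 1.69% and 4.55% called, near the 1.28% and 3.48% of all tested regions. The cell cycle and survival list had 2 of 35 higher at 2 h, both near CCND1, and 3 of 37 lower at 18 h over 2 h, of which 1 was in BCL2L1, the BCL-XL gene. The shares called in this list were 5.71% and 8.11%, against 1.28% and 3.48% of all tested regions.

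**Figure D4:**
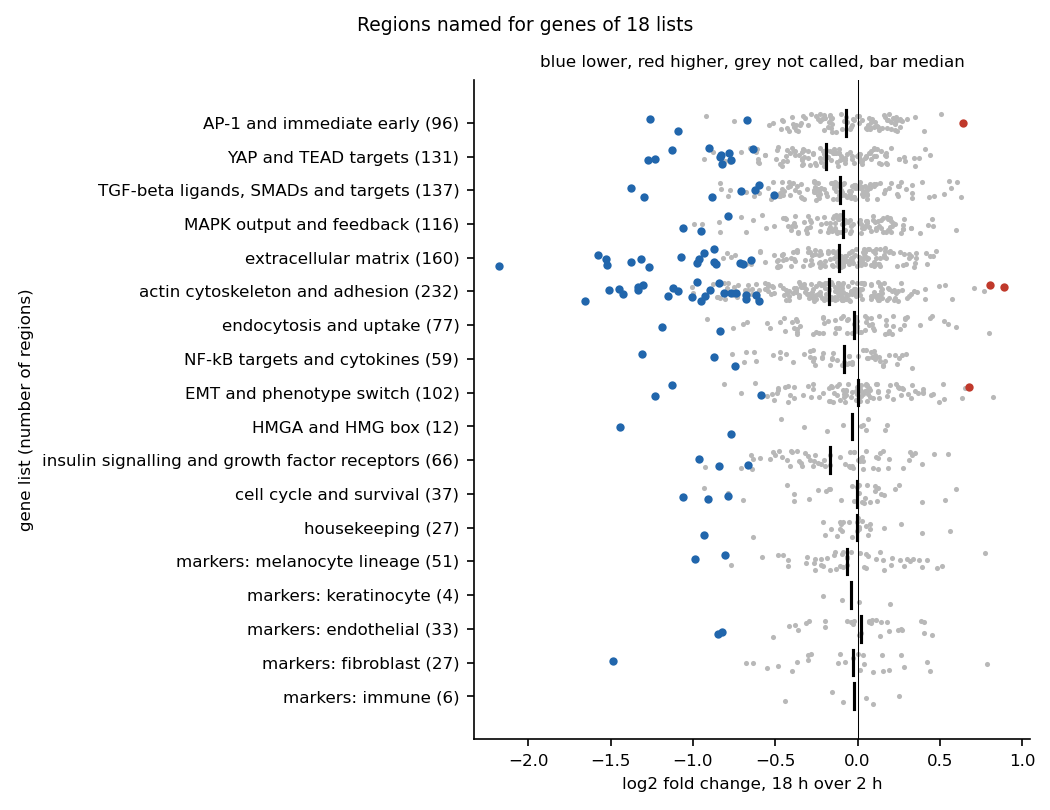
Log2 fold change at 18 h over 2 h (authors' deposited table) of every distal region named for a gene of the 18 lists, with the number of regions beside each list; blue points are lower and red points higher at an adjusted p under 0.05, grey points were not called, and the black bar is the list's median. The matrix list has 17 lower of 160 and the actin list 23 lower of 232, with medians of -0.11 and -0.17.

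Distal regions carried the names of 11 of 14 melanocyte lineage genes, with 51 regions, which is a description of accessible sites and not of expression. Of 46 tested, 1 was higher at 2 h over mock, in TRPM1, a melanocyte ion channel gene, with 172 ± 14.0 at 18 h, 341 ± 25 at 2 h and 185 ± 15.0 in mock cells (log2 0.88, adjusted p = 2.89e-05, authors' deposited table). Endothelial markers had 33 regions, with 1 of 31 tested higher, in TEK, and fibroblast markers 27, with 1 of 25 higher, near POSTN. The POSTN region, 18.2 kb from the gene for the matrix protein periostin, had 38 ± 6.13, 106 ± 14.4 and 44.7 ± 7.03 at 18 h, 2 h and in mock cells. Keratinocyte markers had 4 regions and immune markers 6, and none of these was called in a comparison by the DESeq2 test; at an unadjusted p under 0.05 the immune list had 1 at 2 h over mock. Housekeeping genes had 27 regions, none of 24 tested called at 2 h over mock, with 0 at an unadjusted p under 0.05, and 1 lower at 18 h over 2 h, near ACTB. With so few regions per marker list, 1 call was 3.23% of the endothelial and 4% of the fibroblast regions tested at 2 h over mock, against 1.28% of all tested regions.

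At 18 h over mock, 7 of the distal regions were lower and none higher among 16314 tested, in the authors' deposited table. The 7 are 0.0429% of those tested; of all 55341 tested regions 0.116% were lower and 0.00542% higher, or 0.121% in all. Another 18228 of the distal regions had no test, since the limit of mean signal was 101 in that comparison. An unadjusted p under 0.05 was found for 1113 regions, 113 of them higher and 1000 lower, and no other tool could be run. The median log2 fold change was -0.06, against -0.07 over all tested regions; centred on that median, 2 of the 7 calls were left.

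The RELL1 region, 24.1 kb from the start of a gene for a TNF receptor relative, had 88.3 ± 10.2 normalised reads at 18 h and 184 ± 19.0 in mock cells, with 133 ± 14.5 at 2 h. It fell by 1.06 ± 0.22 at 18 h over mock (adjusted p = 0.00549, authors' deposited table). The ABLIM1 region, 51.3 kb from the start of a gene for an actin-binding LIM protein, had 192 ± 15.4 at 18 h and 330 ± 24.4 in mock cells, with 372 ± 27.2 at 2 h, and fell by 0.78 (adjusted p = 0.00421, authors' deposited table). THRB, the thyroid hormone receptor beta gene, had a region that fell by 0.99 (adjusted p = 0.0356, authors' deposited table). The other 4 lay near DPYSL2, PLEKHF2, HSD3B1 and DPYSL3, and fell by 0.58 to 0.85. The DPYSL3 region, 57.7 kb from the gene of a collapsin response mediator protein, was low at both times, with 242 ± 17.5 at 18 h, 249 ± 18.2 at 2 h and 361 ± 24.6 in mock cells, and was the only 1 of the 7 also called at 2 h over mock (-0.53, adjusted p = 0.0227, authors' deposited table).

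How many regions were called moved with mean signal. At 2 h over mock, 0.337% of tested regions with a mean signal of 50 to 75 were higher and 0.0130% lower, against 1.59% and 0.814% at 200 to 300. At 18 h over 2 h the share of losses was 1.21% at 50 to 75 and 5.80% at 200 to 300. The median SE of the log2 fold change at 2 h over mock was 0.30 in the weakest bin and 0.16 in the strongest. The smallest gain called there at 2 h was 1.01 on the log2 scale at 50 to 75 and 0.48 at 200 to 300. Smaller gains in the weakest regions were thus not called, and the size of gain that could be detected was not tested. The shares differed less by distance: the share higher at 2 h was 0.764% at 10 to 20 kb, 1.05% at 60 to 80 kb and 0.822% at 80 to 100 kb, and the share lower at 18 h over 2 h lay between 2.70% and 3.59% in the 5 distance bins.

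**Figure D5:**
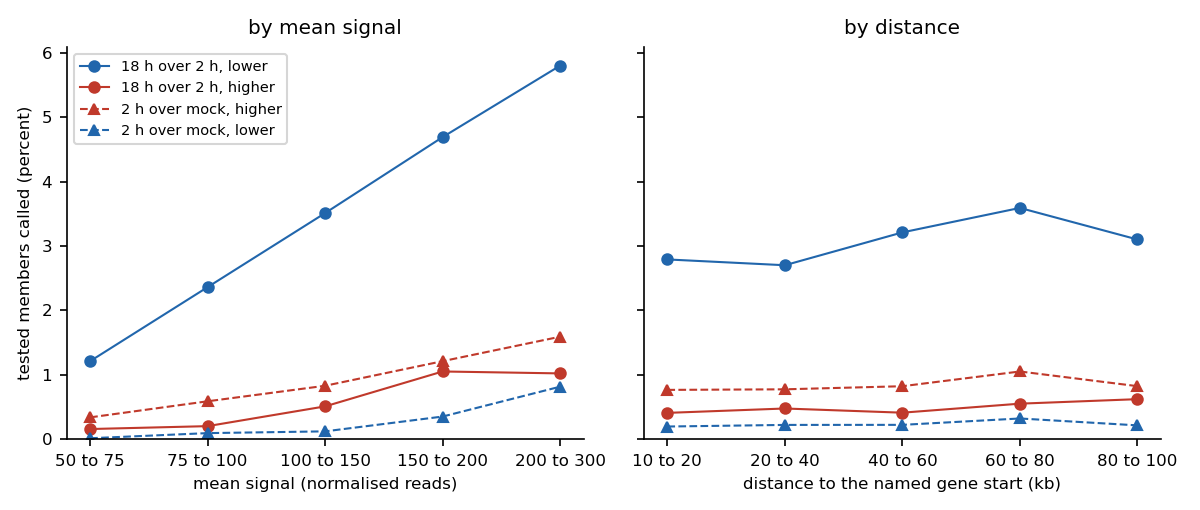
Percent of tested distal regions called higher (red) or lower (blue) at an adjusted p under 0.05 by bins of mean signal (left) and of distance to the named gene start (right), for 18 h over 2 h (circles) and 2 h over mock (triangles). The share lower at 18 h over 2 h is 1.21% in the weakest and 5.80% in the strongest bin of signal, and 2.70% to 3.59% over the bins of distance.

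By position, 128 of the 254 gains at 2 h lay inside the named gene (0.860% of tested regions there). Outside both the named gene and every protein-coding gene lay 119 (0.800%). For losses at 18 h over 2 h the counts were 537 (3.19%) and 464 (2.79%). Regions of the same signal nearer to genes or farther away gave other shares: of those 1 to 10 kb from a start, 12064 in number, 0.452% of tested ones were higher at 2 h and 2.06% lower at 18 h over 2 h. Of the 18370 at 100 to 500 kb, 1.14% were higher at 2 h and 3.74% lower at 18 h over 2 h. The distal regions, at 0.826% and 2.99%, lay between; these differences were not tested. By chromosome, chromosome 15, which holds THBS1, TPM1 and ALDH1A3, had 22 regions higher at 2 h (1.87% of those tested) and chromosome 16, which holds SLC7A5, had 17 (1.63%).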

How the data were processed

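The submitters' processing notes name bcl2fastq 2.17, DESeq2 and hg38; the aligner, peak caller, counter, annotation and any shift of reads for Tn5 are not given in the sources used here. Only comparisons were deposited by the authors, as 3 tables, 1 row per region and gene name, and 0 columns with values of a single library, so depth per library is unknown, and leaving out a library, a replicate block or another count model could not be run. Per the file headers and values, the deposited signal is the mean normalised count over 6 libraries, the deposited log2 fold change has its standard error and a Wald score, the deposited p-value is adjusted by Benjamini-Hochberg over regions above a limit of mean signal, and the distance to a gene start is signed. Below limits of 56.2 (2 h over mock), 101 (18 h over mock) and 41.7 (18 h over 2 h) every adjusted p is 1, and such regions were counted as not tested; recomputed adjusted p-values differed from the deposited ones by at most 4.99e-14. The deposited 18 h over 2 h values equal the difference of the other 2 to within 9.10e-15, so all 3 come from 1 fit.

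From these, group levels were solved from the mean signal and both log2 fold changes, and their SEs from the 3 standard errors. For each pair of groups, the difference of their implied variances was fitted on 1 over their levels. The fits explained at least 0.999998 of the variance of that difference, in which a dispersion shared by the groups cancels. They gave mean size factors of 1.05 (18 h), 0.970 (2 h) and 0.993 (mock). The levels are approximate, and the SEs share the fit's dispersion. Regions with several names (603) took the nearest; 33918 of the 34542 had a name in RefSeq (GRCh38.p14), which gave spans, strands and the printed sequences. Coordinates are those of the authors' tables, and whether they count from 0 or 1 is not stated. Calls use an adjusted p under 0.05. Named regions are, per comparison, the 10 highest and 10 lowest called (1 per gene name, clone, antisense, LOC, LINC and MIR names left out), the 6 gene names with the most called regions (at least 3, ties kept), and up to 3 called regions of each of 18 gene lists or, where none was called, the 1 with the smallest p; regions with a printed RefSeq start or hairpin were added afterwards. Members and lists were chosen with earlier results of these data known. Scripts used Python 3.11.15, pandas 2.3.3, numpy 2.4.6, scipy 1.17.1 and matplotlib 3.10.9, and were tested on simulated data. Alternatives were other thresholds, filters, centrings and limits of the rule. A few results on withheld items are not reported here.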

Additional observations from a re-analysis of the deposited data

Results flagged for a closer look

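Of the regions with the largest changes at 2 h over mock, taken 1 per gene name, 12 also differed directly between the exposure times, in the authors' deposited table of 18 h over 2 h. The 9 that rose at 2 h were lower at 18 h: THBS1 with a log2 fold change of -2.18, CHI3L1 with -1.72, BST1 with -1.54, TPM1 with -1.43, SYDE2 with -1.41, CDC42BPA with -1.30, LRRC2 with -1.27, FAM20B with -1.22 and SLC7A5 with -1.17. The 3 that fell at 2 h were higher at 18 h: FYB1 with 0.98, PCED1B with 0.85 and TSPYL5 with 0.73. They were picked for a large 2 h value, and both comparisons share the 2 h libraries.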

How the results depend on the processing

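No paired analysis was possible because the deposited tables hold no values per library; for the same reason leaving out libraries, other count models and another normalization were not run. At an adjusted p under 0.01 the counts were 121 higher and 26 lower at 2 h over mock, 2 lower at 18 h over mock, and 62 higher and 598 lower at 18 h over 2 h. At 0.1 there were 378 higher and 147 lower at 2 h over mock and 3 higher and 27 lower at 18 h over mock. At 18 h over 2 h there were 282 higher and 1389 lower at 0.1. With no filter on mean signal there were 168 higher and 40 lower at 2 h over mock and 3 lower at 18 h over mock. At 18 h over 2 h there were 103 higher and 794 lower with no filter. With a filter at 50, 4 were lower at 18 h over mock. For that filter and the settings that follow, counts that changed little are not listed. With each comparison's median over tested regions set to 0, 382 were higher and 46 lower at 2 h over mock and 2 lower at 18 h over mock; this moved the median log2 fold changes to 0.0264, 0.0071 and -0.0061 for 2 h over mock, 18 h over mock and 18 h over 2 h. Centring within 20 bins of signal gave 1 lower at 18 h over mock and medians of 0.0047 and 0.00055 at 2 h and 18 h over mock. Regions with a signal of 50 to 150 held 126 higher and 16 lower at 2 h over mock, 2 lower at 18 h over mock, and 69 higher and 555 lower at 18 h over 2 h; those at 10 to 50 kb held 160 and 42, 3, and 99 and 648. Both sets have fewer regions. Other causes were not tested.

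Of 40 named regions called at 2 h over mock, 12 lost the call at 0.01, 6 with no filter and 0 under either centring; of 57 at 18 h over 2 h, 8, 3 and 0 did; of 7 at 18 h over mock, centring on the median took 5. Leaving out regions near a RefSeq protein-coding start, chosen after seeing the data, left 242 higher and 67 lower at 2 h over mock. Small changes in weak regions were not called with 2 libraries per group, and the size of change that could be detected was not tested.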
